A study of Mus musculus with 24 samples.

Results

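Kmt5a, Kmt5b and Kmt5c encode the enzymes that methylate lysine 20 of histone H4 (H4K20) in the mouse. Peaks of H3K27ac and H3K4me1 were taken at these 3 genes, from 4 deposited peak lists, 1 per mark and condition, wherever a peak touched the gene body or the 5 kb on either side of its annotated ends. There were 49 such peaks among 272993 on assembled chromosomes in all lists. Doxycycline lists held 6 of the H3K27ac and 17 of the H3K4me1 peaks, and lists without doxycycline held 9 and 17. The genes were chosen by what they encode and with earlier results of these lists known, the H3K27ac difference in covered length at Kmt5c among them, so every difference below is a description without a test.

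The cells were TgSpi1 erythroleukemic cells (#763), which come from bone marrow, carry a Spi1 transgene, overexpress the ETS factor SPI1 (PU.1) and were grown with erythropoietin. In the Dox_Treated group, 48 h of doxycycline switched on a hairpin RNA that targets Spi1, and the Dox_Untreated group of the same cells got no doxycycline. Both groups carry the transgene and the inducible hairpin, and no group is labelled as doxycycline without the hairpin, so effects of the drug and of the hairpin cannot be told apart. Each H3K27ac list stands for replicates 1 and 2 together and each H3K4me1 list for replicate 1, so no value has a replicate error and read depth is unknown. Peak starts lie on a grid of 50 bp, which limits how finely an edge can be placed.

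KMT5A (also called SET8 or PR-SET7) places a single methyl group on H4K20, and KMT5B and KMT5C (SUV4-20H1 and SUV4-20H2) add further methyl groups to give the dimethyl and trimethyl forms. The monomethyl form is tied to mitosis and chromosome compaction, the dimethyl form to origin licensing and DNA repair, and the trimethyl form to pericentromeric heterochromatin. In the mouse, KMT5A is known to be abundant in erythroid precursors and needed for their maturation. H3K27ac marks active promoters and enhancers, and H3K4me1 marks enhancer-type chromatin and the flanks of active promoters.

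The sequences just before the annotated starts are shown because an H3K27ac peak covered each of these starts in both conditions. The peaks did not reach over all of the bases shown. At Kmt5c the peak over the start began at 4740049 with doxycycline and at 4740099 without. Without doxycycline the peak over the outer Kmt5a start began at 124439799. They are the 250 bases before the start, from RefSeq on GRCm38.p6, the assembly behind mm10, all on the + strand. The table held 6 starts for the 3 genes. Shown are the outer and the first inner start of Kmt5a (chr5:124439680-124439929 and chr5:124445249-124445498), the outer start of Kmt5b (chr19:3767171-3767420) and the single start of Kmt5c (chr7:4739877-4740126). Capitals mark matches on either strand to any of the 5 motifs spelled out after the sequences.
Kmt5a outer start: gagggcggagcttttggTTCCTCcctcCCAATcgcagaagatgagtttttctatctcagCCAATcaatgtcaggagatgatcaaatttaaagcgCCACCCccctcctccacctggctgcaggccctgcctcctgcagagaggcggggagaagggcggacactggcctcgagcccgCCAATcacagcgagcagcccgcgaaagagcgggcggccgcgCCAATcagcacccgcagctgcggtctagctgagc
Kmt5a inner start: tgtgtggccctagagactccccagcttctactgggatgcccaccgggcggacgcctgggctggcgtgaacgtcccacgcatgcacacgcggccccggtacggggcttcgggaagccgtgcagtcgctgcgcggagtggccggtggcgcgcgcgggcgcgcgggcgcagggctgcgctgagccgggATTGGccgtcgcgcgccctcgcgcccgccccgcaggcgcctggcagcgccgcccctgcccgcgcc
Kmt5b outer start: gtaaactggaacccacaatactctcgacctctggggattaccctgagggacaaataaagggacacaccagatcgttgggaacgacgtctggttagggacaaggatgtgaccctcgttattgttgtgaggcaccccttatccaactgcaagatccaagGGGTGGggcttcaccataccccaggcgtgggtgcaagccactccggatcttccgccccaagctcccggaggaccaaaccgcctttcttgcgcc
Kmt5c start: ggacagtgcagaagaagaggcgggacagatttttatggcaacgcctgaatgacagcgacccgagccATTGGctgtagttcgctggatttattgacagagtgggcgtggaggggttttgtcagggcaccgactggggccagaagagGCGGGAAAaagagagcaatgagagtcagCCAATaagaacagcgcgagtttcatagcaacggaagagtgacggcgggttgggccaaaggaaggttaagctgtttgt

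The motifs were chosen after these sequences had been read. CCAAT, the box bound by NF-Y, occurred 4 times before the outer Kmt5a start, with first bases 223, 191, 75 and 34 bases before it. It occurred once before the first inner start of Kmt5a, 2 times before the second, and 2 times before the Kmt5c start, 184 and 77 bases before it. Neither Kmt5b start had a match in its 250 bases. Of 32851 such windows in the table, 33.8% held CCAAT. GCGGGAAA, an E2F-type site, was present 105 bases before the Kmt5c start and in 0.895% of all windows. GAGGAA, an ETS core of the PU.1 kind, was present before the outer Kmt5a start at 233 bases and in 23.3% of all windows. CCACCC, a box of the Kruppel-like factors, was present before the outer Kmt5a start at 156 bases, before its second inner start at 149 bases and before the outer Kmt5b start at 93 bases, and in 28.1% of all windows. The sequence recognised by erythroid zinc-finger factors of the GATA family was searched as AGATAA; none of the 6 windows held it, and 9.99% of all windows did. No matches to different motifs overlapped in these windows. The share of G or C was 62% before the outer Kmt5a start, 78% before its first and 61.6% before its second inner start. It was 56.4% before the outer and 73.2% before the second Kmt5b start, and 53.6% before the Kmt5c start. The median over all windows was 52.4%.

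**Figure D1:**
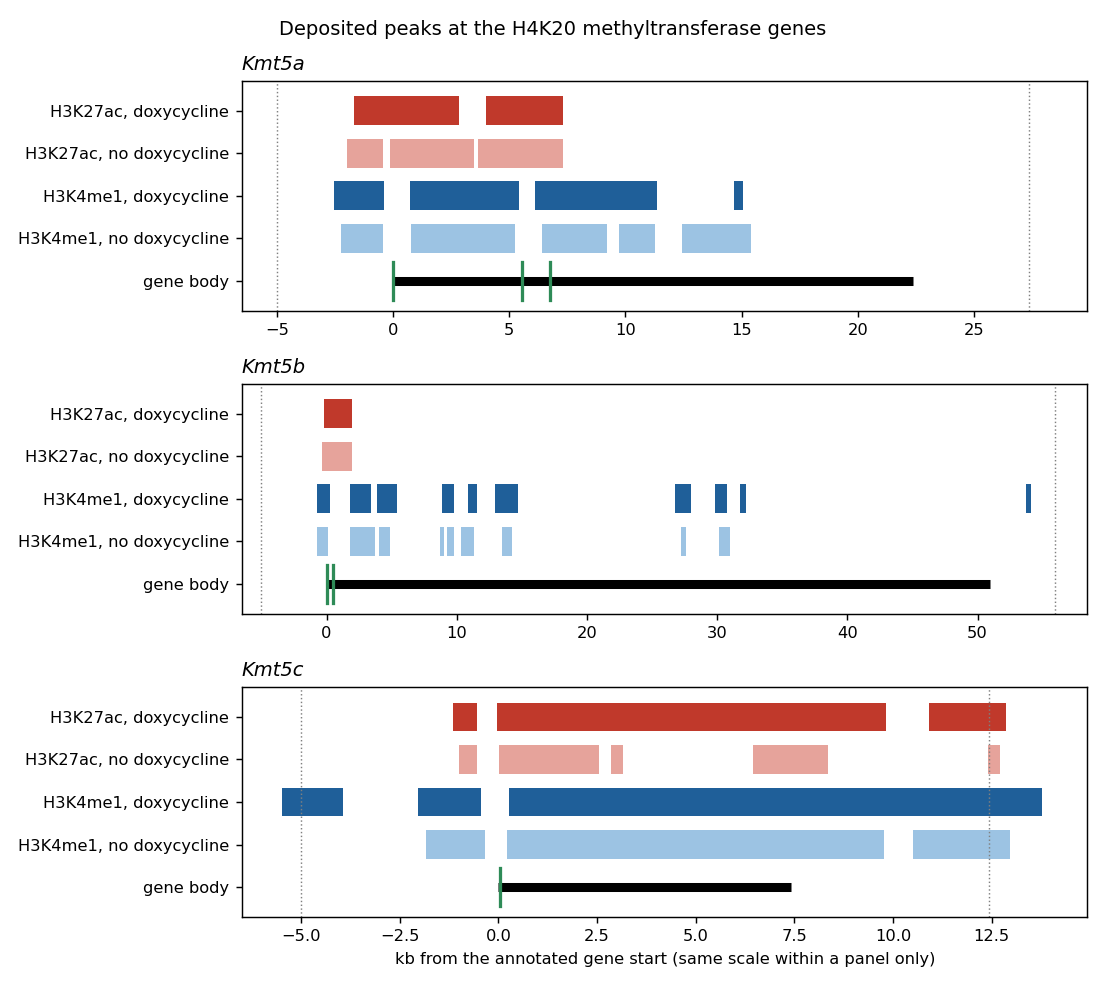
Deposited peaks at Kmt5a, Kmt5b and Kmt5c by distance in kb from the annotated gene start; filled blocks are peaks, the black bar is the gene body, green ticks are annotated starts and dotted lines are the window edges. At Kmt5c a single H3K27ac peak of 9853 bp in the doxycycline list lies over 3 separate peaks in the list without doxycycline.

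H3K27ac at Kmt5c reached over the whole gene with doxycycline and over separate stretches near its start and its end without it. Kmt5c (gene ID 232811, chromosome 7, 4740092 to 4747514 on mm10) is 7423 bp long. Its window had 11972 bp covered by H3K27ac peaks in the Dox_Treated list and 5228 bp in the Dox_Untreated list, a difference of 6744 bp and a fold of 2.29. The gene body was 100% covered with doxycycline and 51.5% without. In the 5 kb after the gene 3903 bp were covered with doxycycline and 953 bp without, and in the 5 kb before it 646 bp with doxycycline and 453 bp without. All 5228 bp of the Dox_Untreated list were also covered in the Dox_Treated list, which had 6744 bp of its own.

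In the Dox_Treated list the main Kmt5c peak ran from 4740049 to 4749901, 9853 bp, from 43 bp before the gene start to past its end. Only 0.454% of the peaks in that list were as wide or wider. Beneath it the Dox_Untreated list had peaks of 2553 bp at 4740099 to 4742651, of 303 bp at 4742949 to 4743251 and of 1903 bp at 4746549 to 4748451. They were separated by gaps of 297 bp and 3297 bp. A treated peak over at least 3 untreated peaks was found 343 times in the whole list (1.47%), and an untreated peak over at least 3 treated ones 147 times (0.509%). A shorter peak upstream, at the long noncoding gene Gm42369, had 603 bp with doxycycline and 453 bp without and ended at the same base in both lists. Downstream, a peak of 1953 bp with doxycycline stood over one of 303 bp without, at Cox6b2, a cytochrome c oxidase subunit gene of testis. These peaks cannot be assigned to one of the neighbouring genes. The small nuclear RNA gene Gm24537, upstream, had no H3K27ac in either list.

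Among 2891 protein-coding genes of 5 to 10 kb, 8 had their whole body under H3K27ac with doxycycline and 5 without. Of these, 6 were covered throughout in the Dox_Treated list alone, Kmt5c among them, and 3 in the Dox_Untreated list alone. Over all 21883 protein-coding genes, Kmt5c was number 64 by H3K27ac difference. Only 12311 of these genes had H3K27ac in at least 1 list and could differ. Of 11559 genes covered in both lists, 9.78% were at least 1.5-fold longer with doxycycline and 10.2% at least 1.5-fold shorter. Since this difference at Kmt5c was known when the genes were chosen, its place among them is a description.

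H3K4me1 already spanned Kmt5c without doxycycline. It covered 14829 bp of the window in the Dox_Treated list and 12972 bp in the Dox_Untreated list, a difference of 1857 bp. That difference was 989 bp with treated lengths scaled to the untreated total, and 4356 bp with 20 kb either side of the gene. The gene body was 96.5% covered with doxycycline and 97.2% without. The Dox_Treated list had 1 peak of 13503 bp from 4740349 to 4753851, and the Dox_Untreated list had peaks of 9553 bp and 2453 bp in its place, 747 bp apart. By the authors' score, whose scale is not given, the first was within the top 0.582% of its list, and the 9553 bp peak within the top 1.18% of its own. A further Dox_Treated peak of 1553 bp, at 4734599 to 4736151 and reaching beyond the window, had no counterpart without doxycycline. The part of the Kmt5c window with both marks was 11672 bp with doxycycline and 5028 bp without, while H3K4me1 alone took 3157 bp with doxycycline and 7944 bp without.

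Kmt5a had slightly shorter H3K27ac and H3K4me1 in the doxycycline lists, though H3K4me1 was longer when windows were limited to 5 kb around each gene end (by 400 bp). The gene (ID 67956, chromosome 5, 124439930 to 124462311) is 22382 bp long and has 3 annotated starts. H3K27ac covered 7806 bp with doxycycline and 8809 bp without, a difference of -1003 bp, which was -2153 bp with 20 kb either side of the gene. That wider window takes in the neighbouring gene Rilpl2, whose body had 1337 bp of H3K27ac with doxycycline and 2787 bp without. Of the 7806 bp and 8809 bp at Kmt5a, 7509 bp were common to both lists, which is 96.2% of the treated and 85.2% of the untreated length. The Dox_Treated list had peaks of 4503 bp and 3303 bp, and the Dox_Untreated list had peaks of 1553 bp, 3603 bp and 3653 bp.

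The layout of these H3K27ac peaks differed around the outer Kmt5a start. With doxycycline a continuous peak from 124438249 to 124442751 covered the start and the bases before it, and a gap of 1197 bp separated it from the inner peak. Without doxycycline the outer stretch was broken by a gap of 297 bp just before the start, and 197 bp separated it from the inner peak. The inner peak covered both inner starts and ended at 124447251 in both lists. Beyond it no H3K27ac peak lay in the rest of Kmt5a or in the 5 kb after it, although the gene body goes on for most of its length.

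H3K4me1 at Kmt5a covered 12512 bp with doxycycline and 13665 bp without, a difference of -1153 bp, which was -1885 bp with treated lengths scaled to the untreated total. The lists shared 11065 bp. A peak of 3003 bp without doxycycline, at 124452349 to 124455351 in the gene body, had a peak of only 403 bp in its place with doxycycline. In the other direction, a peak of 5253 bp with doxycycline (124446049 to 124451301) stood where 2 peaks of 2803 bp and 1553 bp lay without it. H3K4me1 before the gene was 2153 bp with doxycycline and 1803 bp without. Just outside the window, a peak of H3K4me1 ended 5329 bp before the gene with doxycycline and 5379 bp without, and it was not counted. The closer edge of the nearest gene, Rilpl2, lies 954 bp after Kmt5a. No peak of either mark lay between the Kmt5a end and the window edge in any list.

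Kmt5b had nearly the same H3K27ac in both lists and longer H3K4me1 with doxycycline. The gene (ID 225888, chromosome 19, 3767362 to 3818303) is 50942 bp long. Its single H3K27ac peak covered 2203 bp with doxycycline (3767149 to 3769351) and 2303 bp without (3766999 to 3769301). The difference of -100 bp is close to the grid of 50 bp on which the edges lie. No other H3K27ac peak lay within 32.6 kb after the gene with doxycycline or within 32.8 kb without, and the nearest ones before it were 47.6 kb away with doxycycline and 47.5 kb without.

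H3K4me1 at Kmt5b covered 10430 bp with doxycycline and 7477 bp without, a difference of 2953 bp and a fold of 1.39. Within 5 kb of the gene ends alone the difference was 464 bp, and with 20 kb either side of the gene it was 1947 bp. The Dox_Treated list had 10 peaks of 403 to 1803 bp, and the Dox_Untreated list had 9 peaks of 253 to 1953 bp. Most of the difference lay in the gene body, with 9314 bp with doxycycline and 6714 bp without. One peak had 1803 bp with doxycycline (3780299 to 3782101) and 753 bp without. Another, near the middle of the gene, had 1203 bp with doxycycline (3794149 to 3795351) and 403 bp without. A peak near the start went the other way, with 1603 bp with doxycycline and 1953 bp without. The 2 treated peaks without a counterpart were narrow, 453 bp inside the overlapping long noncoding gene Gm16066 and 403 bp beyond the gene end, and by score they ranked at 91.7% and 98.9% of their list counted from the top. Gm19209, a pseudogene in the 5 kb after Kmt5b, had no peak over it in any list. Since each H3K4me1 list is from 1 replicate, how far such low peaks vary between cultures was not tested.

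**Figure D2:**
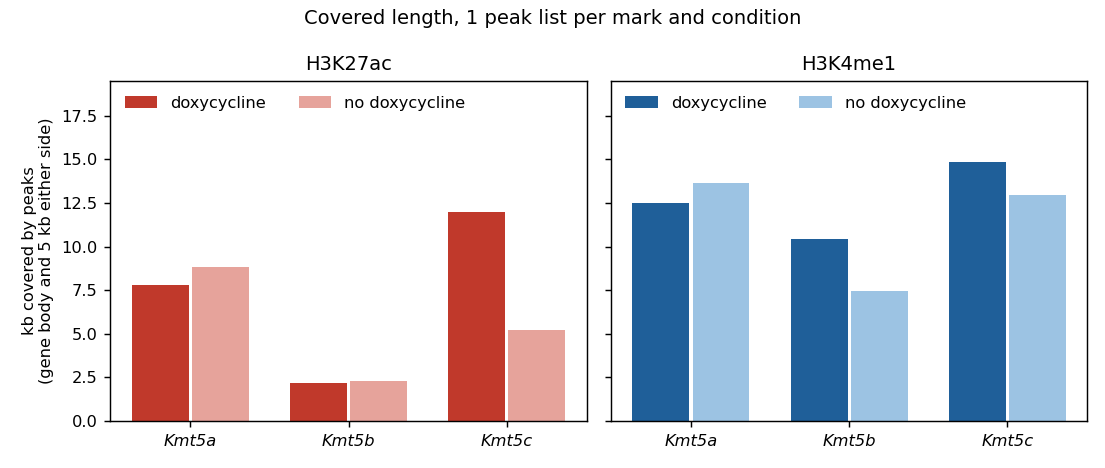
Length in kb covered by peaks in the gene body and 5 kb either side of Kmt5a, Kmt5b and Kmt5c, for H3K27ac (left) and H3K4me1 (right), 1 list per bar and no error bars. Kmt5c H3K27ac, with 11972 bp with doxycycline and 5228 bp without, is the pair that differs most.

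Set side by side, the genes differed in how much of each window was marked. H3K27ac covered 68.7% of the Kmt5c window with doxycycline and 30.0% without. At Kmt5a it covered 24.1% with doxycycline and 27.2% without, and at Kmt5b 3.61% with and 3.78% without. H3K4me1 covered 85.1% of the Kmt5c window with doxycycline and 74.5% without. At Kmt5a it covered 38.6% with and 42.2% without, and at Kmt5b 17.1% with and 12.3% without. The Kmt5c window is 17423 bp long, that of Kmt5a 32382 bp and that of Kmt5b 60942 bp, and a share falls with window length where the marks stay near the start. The order Kmt5c, Kmt5a, Kmt5b held in H3K27ac share with doxycycline and without it, and likewise in H3K4me1.

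The marks also overlapped to different degrees. At Kmt5c, 97.5% of the H3K27ac length lay under H3K4me1 with doxycycline and 96.2% without. At Kmt5a the values were 77.0% with and 76.8% without, and at Kmt5b 27.5% with and 28.5% without. Over the whole lists 84.5% of the H3K27ac length lay under H3K4me1 with doxycycline and 80.9% without. Of the H3K4me1 length, the share under H3K27ac was 78.7% with doxycycline and 38.8% without at Kmt5c. It was 48.0% with and 49.5% without at Kmt5a, and 5.81% with and 8.77% without at Kmt5b. Over the whole lists 17.8% of the H3K4me1 length lay under H3K27ac with doxycycline and 18.2% without. Kmt5b carried H3K4me1 mostly outside H3K27ac in both conditions, as did the lists as wholes.

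Every one of the 6 annotated starts lay inside an H3K27ac peak in both lists. Both inner Kmt5a starts shared the same peak, as did both Kmt5b starts, so the starts are not separate cases. Over all annotated starts, 31.8% of 32851 did so with doxycycline and 30.4% without. H3K4me1 was missing over 4 of the 6 starts in both conditions. At the outer Kmt5a start the nearest H3K4me1 edges were 379 bp before and 719 bp after it with doxycycline, and 429 bp before and 769 bp after it without. At the Kmt5c start they were 476 bp before and 222 bp after it with doxycycline, and 376 bp before and 172 bp after it without. The second inner Kmt5a start and the outer Kmt5b start lay inside an H3K4me1 peak in both lists. Of all starts under H3K27ac, 66.3% with doxycycline and 72.5% without had no H3K4me1 peak over them, so this layout was common.

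As a count, H3K27ac was longer with doxycycline at 1 of the 3 genes and shorter at 2. Over the 12311 protein-coding genes covered in at least 1 list, 46.7% were longer and 50.5% shorter. H3K4me1 was longer at 2 of the 3 and shorter at 1, against 60.7% longer and 38.7% shorter of 16359 genes. None of the 3 reached 1.5-fold in H3K4me1 in either direction, as did 10.2% of 15307 genes upward and 5.58% downward. The median difference of the 3 genes was -100 bp in H3K27ac and 1857 bp in H3K4me1, and over all genes covered in both lists it was 0 bp and 403 bp.

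**Figure D3:**
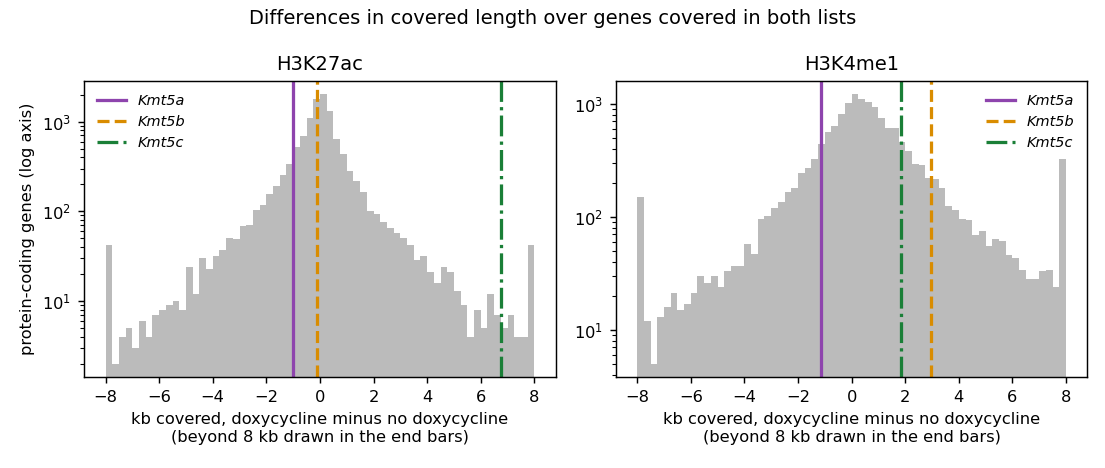
Number of protein-coding genes (log axis) by the difference in covered length, doxycycline minus no doxycycline, in kb, with lines at Kmt5a, Kmt5b and Kmt5c. Against the quartiles over genes covered in both lists (-500 and 400 bp in H3K27ac, -506 and 1553 bp in H3K4me1), Kmt5b H3K27ac at -100 bp lies between them and the other 5 lines lie outside, Kmt5c H3K27ac farthest at 6744 bp.

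All 6 H3K27ac peaks of the Dox_Treated list in these windows overlapped a Dox_Untreated peak by at least 1 bp, as did 82.9% of that whole list. All 9 of the Dox_Untreated list overlapped a treated one, against 72.6% of the whole list. In H3K4me1 14 of 17 Dox_Treated peaks had a counterpart, close to the 79.2% of the whole list, and 17 of 17 Dox_Untreated peaks did, against 73.3%. When both peaks of a pair had to be covered by at least 50%, the H3K27ac numbers were 4 of 6 treated peaks (61.8% of the whole list) and 4 of 9 untreated peaks (49.9%). The H3K4me1 numbers were then 10 of 17 treated peaks (58.4% of the whole list) and 10 of 17 untreated peaks (49.6%), so these counts lay near the list-wide shares. The 3 H3K4me1 peaks without any counterpart were Dox_Treated peaks, 2 at Kmt5b and 1 at Kmt5c. No H3K27ac peak at these genes lacked a counterpart, against 17.1% of Dox_Treated and 27.4% of Dox_Untreated H3K27ac peaks over the whole lists. Of all H3K4me1 peaks 20.8% of Dox_Treated and 26.7% of Dox_Untreated ones had none.

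Other genes of H4K20 methylation were taken from lists of 28 genes that recruit the enzymes, remove or read the mark, or control KMT5A turnover. H3K27ac was longer with doxycycline at 11, shorter at 16 and equal at 1, where 46.7% of all covered protein-coding genes were longer and 50.5% shorter. The equal one, L3mbtl1, had no H3K27ac in either list, and the all-gene shares leave such genes out. H3K4me1 was longer at 18 and shorter at 10, near the all-gene shares of 60.7% and 38.7%. No gene was at least 1.5-fold longer in H3K27ac and 1 was at least 1.5-fold shorter, against 9.78% and 10.2% of all genes covered in both lists. In H3K4me1, 2 were longer and 1 shorter by that fold, against 10.2% and 5.58%. The median differences were -128 bp in H3K27ac and 1162 bp in H3K4me1, and over all genes covered in both lists 0 bp and 403 bp. The smaller groups below are described by their values, and nothing particular to a group is read from its counts.

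Of the 8 genes for recruiting proteins, 7 had shorter H3K27ac with doxycycline and 1 longer, beside 50.5% shorter and 46.7% longer over all genes. Cbx3 encodes an HP1 protein that binds methylated H3K9, and its H3K27ac was 6556 bp with doxycycline against 8365 bp without. At Rbl2, a pocket protein gene of the RB family, H3K27ac was 2053 bp with doxycycline against 3409 bp without. H3K4me1 there was 8060 bp with against 12233 bp without. Rbl1, of the same family, differed in direction between the marks. Its H3K27ac was 3203 bp with doxycycline against 4662 bp without, and its H3K4me1 25957 bp with against 19584 bp without. Cbx5, another HP1 gene, had 26804 bp of H3K4me1 with doxycycline against 23195 bp without. The H3K9 methyltransferase genes Suv39h1 and Suv39h2 went in opposite directions in both marks. At Suv39h1 H3K4me1 was 7743 bp with against 10864 bp without, and H3K27ac 1853 bp with against 2106 bp without. At Suv39h2 H3K4me1 was 6700 bp with against 5671 bp without, and H3K27ac 2603 bp with against 2453 bp without.

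Among the 3 removing enzymes, H3K27ac was longer with doxycycline at 2 and shorter at 1 (46.7% and 50.5% of all genes). Rsbn1, reported as an H4K20 demethylase, was the shorter one, with 5656 bp of H3K27ac with doxycycline against 7509 bp without. Its H3K4me1 was 25827 bp with against 29548 bp without. Phf8 encodes an enzyme that removes the monomethyl form. Its H3K27ac was 2653 bp with doxycycline against 2553 bp without, and its H3K4me1 12689 bp with against 15798 bp without. For Phf2, of the same enzyme family, H3K27ac was 2453 bp with against 2303 bp without, and H3K4me1 18667 bp with against 17333 bp without.

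Of the 10 genes for readers, 9 had longer H3K4me1 with doxycycline and 1, Phf20, had shorter, beside 60.7% longer and 38.7% shorter over all genes. Orc1, an origin recognition subunit gene whose protein binds the dimethyl form, had 15559 bp of H3K4me1 with doxycycline against 8097 bp without. H3K27ac at Orc1 was 5056 bp with against 4206 bp without. Bard1 encodes the BRCA1 partner that binds unmethylated H4K20. Its H3K4me1 was 49333 bp with doxycycline against 42045 bp without, and its H3K27ac 12918 bp with against 11618 bp without. At Phf20, whose protein has Tudor domains, H3K4me1 was 23644 bp with against 31011 bp without, and H3K27ac 4762 bp with against 6362 bp without. Tonsl, whose protein also binds unmethylated H4K20, had 2956 bp of H3K27ac with doxycycline against 3856 bp without. L3mbtl1, whose protein binds the lower methyl forms, had no H3K27ac peak in either list. Over the 10 reader genes H3K27ac was longer at 5, shorter at 4 and equal at 1 (46.7% of all genes longer and 50.5% shorter).

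In the KMT5A turnover group of 7 genes, H3K27ac was longer with doxycycline at 3 and shorter at 4 (46.7% and 50.5% of all genes). Cul4a encodes the scaffold of a ligase that degrades KMT5A in S phase. Its H3K27ac was 11509 bp with doxycycline against 9162 bp without, and its H3K4me1 21018 bp with against 18104 bp without. Dtl, the gene of the substrate receptor CDT2, had 4053 bp of H3K27ac with doxycycline against 3403 bp without. H3K27ac at Ddb1, the adaptor gene, was 5086 bp with against 5533 bp without. At Rbx1, the RING subunit gene, H3K27ac was 3274 bp with against 3624 bp without, and H3K4me1 9236 bp with against 6183 bp without. Cul4b, another scaffold gene, had 15422 bp of H3K4me1 with doxycycline against 17878 bp without, and Skp2, a receptor of another ligase, 9165 bp with against 9280 bp without.

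**Figure D4:**
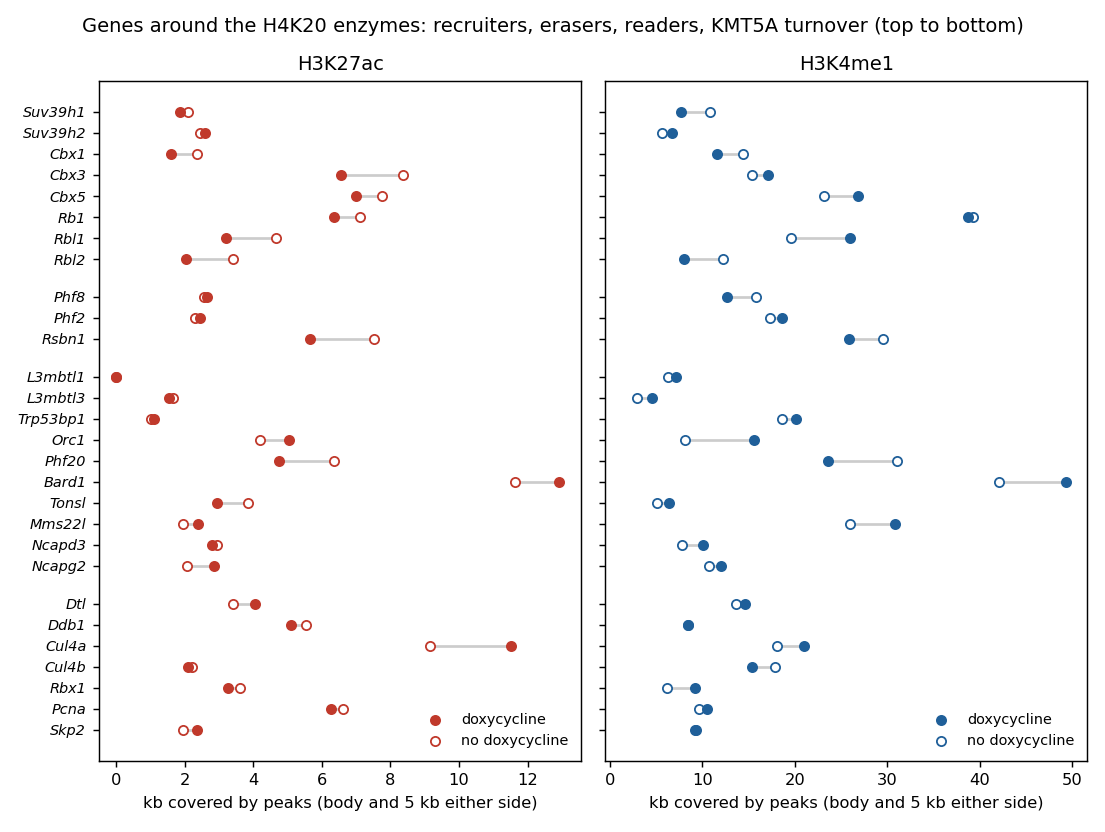
Length in kb covered by H3K27ac (left) and H3K4me1 (right) peaks at 28 genes around the H4K20 enzymes, filled points with doxycycline and open points without, 1 list per point. Among the readers in H3K4me1, Orc1 (15559 bp with, 8097 bp without) and Bard1 (49333 bp with, 42045 bp without) have wide gaps. Phf20 (23644 bp with, 31011 bp without) has a wide gap in the opposite direction. L3mbtl1 lies at 0 in H3K27ac.

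The genes whose 4 lengths came closest to those of each enzyme gene, by the summed absolute difference over the 4 lists, were as follows. For Kmt5b they were Brcc3 at 541 bp, Mms19 at 900 bp and Vps33a at 967 bp. For Kmt5a they were Csgalnact2 at 1650 bp, Gm10277 at 1809 bp and Stx2 at 1844 bp. Kmt5c had no gene as close, with Dhrs11 at 3951 bp, Tent5c at 4190 bp and Fcho1 at 4872 bp. The sum is not scaled to covered length and includes the Kmt5c H3K27ac difference known beforehand, so this distance is only a description. Dhrs11 had 10665 bp of H3K27ac with doxycycline and 7365 bp without.

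At Spi1, whose transcript the hairpin targets, H3K27ac covered 4818 bp with doxycycline and 5221 bp without. H3K4me1 at Spi1 went the other way, with 19824 bp with doxycycline and 16483 bp without. These marks do not measure the knockdown. All 8 erythroid markers had H3K27ac with doxycycline and 7 without, where Slc4a1 was at 0 bp. Their H3K27ac ranged from 1953 to 11193 bp with doxycycline and from 0 to 12749 bp without. Of 4 stromal markers none had H3K27ac with doxycycline and 1 had it without, at 653 bp. Of 5 myeloid markers 2 had H3K27ac in each list, up to only 503 bp with doxycycline and 853 bp without. Itgam, Mpo and Ly6g were at 0 bp in both. Of 4 T cell markers 2 had it in each list, up to 2953 bp with doxycycline and 2636 bp without, and Cd4 and Cd8a were at 0 bp. H3K4me1 covered all 4 stromal markers in both lists, with a median of 6148 bp with doxycycline and 9100.5 bp without. It covered all 8 erythroid markers in both lists, with a median of 14214 bp with doxycycline and 11612.5 bp without. Of the 5 myeloid markers 2 had H3K4me1 with doxycycline and 4 without, and of the 4 T cell markers 3 with and 4 without. The lists differed as wholes too, with 23341 H3K27ac peaks with doxycycline and 28902 without and median widths of 1353 bp with and 1003 bp without. H3K4me1 had 101388 peaks over 195.4 Mb with doxycycline and 119362 peaks over 184 Mb without. The part of these list-wide differences in the values at Kmt5a, Kmt5b and Kmt5c was not tested.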

How the data were processed

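The series has 24 ChIP-seq and input samples of mouse erythroleukaemic cells, of which the 4 peak lists for H3K27ac and H3K4me1 with and without doxycycline were used; the others were not analysed here. Groups came from the sample titles. Reads were handled with bcl2fastq 2.17.1.14 and BWA on mm10, per the submitters' processing notes. Not given in the sources used here are the peak caller, thresholds and how H3K27ac replicates were merged. The authors' H3K27ac files hold positions and widths. Their deposited H3K4me1 files add a score for each peak, which only ranked peaks within a list. No list gives reads.

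Starts and ends were both counted as part of a peak (1-based). Gene positions came from a RefSeq table on GRCm38.p6. For each of 21883 protein-coding genes the bp covered by peaks in the body and 5 kb either side were summed with Python 3.11.15, numpy 2.4.6 and pandas 2.3.3, and figures drawn with matplotlib 3.10.9. The calculation was tested on simulated data. No test was possible with 1 list per group, and a fold of 1.5 served as the call. Named genes were all 3 enzyme genes, genes overlapping their windows, the 2 most different genes per list, mark and direction, the 3 most alike genes for each, and Spi1. Members and lists were chosen with earlier results of these data known. Alternatives were other windows, wider or better peaks, equal peak numbers, merged peaks, scaled lengths and stricter overlaps. One list of cell type markers is not reported here.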

Additional observations from a re-analysis of the deposited data

How the results depend on the processing

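The direction of the H3K27ac difference, doxycycline minus no doxycycline, was the same at Kmt5a, Kmt5b and Kmt5c under all 7 settings of window, peaks and scale. Some of these settings could not change a value, and others could not turn the sign at Kmt5c. At Kmt5c 5 kb around each gene end is the same window as the main one, and no peak at these genes was under 200 bp. Kmt5b has a single H3K27ac peak per list, and its value stayed at -100 bp except with scaled lengths. With windows of the gene body and 20 kb either side the H3K27ac difference was -2153 bp at Kmt5a, where the window takes in the gene Rilpl2, and 6894 bp at Kmt5c. The nearest other H3K27ac peaks at Kmt5c lay 40.3 kb away with doxycycline and 40.1 kb without. The wider window there added only the outer parts of peaks already counted. Kmt5c had 6913 bp with the wider 50% of each list and 7063 bp with equal peak numbers. Both settings ranked H3K27ac peaks by width and kept the treated peak of 9853 bp, so they favoured the difference at Kmt5c. Equal peak numbers left the treated H3K27ac list whole, so no H3K27ac difference could fall. With peaks within 1 kb merged the values were -1497 bp at Kmt5a and 6397 bp at Kmt5c. With treated lengths scaled to the untreated total they were -948 bp, -85 bp and 6828 bp at Kmt5a, Kmt5b and Kmt5c. In H3K4me1 one sign turned: within 5 kb of each gene end Kmt5a had 400 bp rather than -1153 bp, since the peak of 3003 bp in its body lies outside those windows, and Kmt5b had 464 bp. All 3 genes were then longer with doxycycline. With 20 kb either side the H3K4me1 values were -1612 bp, 1947 bp and 4356 bp at Kmt5a, Kmt5b and Kmt5c. The better 50% by score gave -1556 bp at Kmt5a and 3206 bp at Kmt5b, and equal peak numbers 3206 bp at Kmt5b. Merged peaks gave -953 bp, 2259 bp and 1260 bp, and scaled lengths -1885 bp, 2342 bp and 989 bp, in the order Kmt5a, Kmt5b, Kmt5c. Peaks of at least 200 bp changed no value. Under an overlap of 50% of both peaks, 4 rather than 9 untreated H3K27ac peaks and 10 rather than 17 untreated H3K4me1 peaks were shared. No paired analysis was possible because each mark and condition has 1 list, and for the same reason no replicate could be left out. With no read counts, how far sequencing depth sets these lengths was not tested.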
